A study of Mus musculus with 6 samples.

Results

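Opa1 and 9 other genes that shape mitochondria were read with and without the transcriptional repressor gene Hes1 in T-ALL, the acute leukemia of immature T cells, of mice. The 10 genes were taken by name as genes of mitochondrial fusion (Opa1, Mfn1, Mfn2), fission (Dnm1l, Fis1, Mff), cleavage of the OPA1 protein (Oma1, Yme1l1) and cristae (Immt, Chchd3), and every probe carrying one of these symbols was used. The 10 were among 19057 named genes on the Illumina mouse bead array. They had 26 of its 45281 probes, and 17 of the 26 probes, from 9 of the 10 genes, were detected on at least 3 of the 6 arrays. The genes were brought together because Opa1 had measured lower on these same arrays in the samples without Hes1, so the difference between the groups is described for the 10 genes and is not tested. Among probes near that detection limit, the dimmest Opa1 probe lay just inside with 3 arrays, and an Immt probe detected on 1 array was the nearest outside.

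All samples came from leukemias made by retroviral transfer of an activated NOTCH1 (ΔE-NOTCH1) into bone marrow cells that carried Hes1flox/flox alleles and Rosa26 Cre-ERT2, whose Cre enzyme becomes active when 4-hydroxy-tamoxifen binds. The cells had been grown in irradiated NRG mice, hosts without T, B or NK cells of their own. The wild-type group (WT, 3 arrays) was given ethanol for 36 hours and the Hes1-/- group (KO, 3 arrays) 4-hydroxy-tamoxifen for 36 hours. Floxed alleles and the recombinase were thus present in both groups, but only KO received the drug. Beyond Hes1 itself, effects of the drug, of active Cre and of losing Hes1 cannot be told apart. The labels describe both cultured cells and treated mice and do not say whether the replicates came from separate leukemias, so p-values measure only the spread between these samples, which may be technical.

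Mitochondria fuse and divide continuously. The outer membranes are joined by the mitofusins MFN1 and MFN2 and the inner membranes by the dynamin-like GTPase OPA1, which also holds the folds of the inner membrane, the cristae, narrow at their necks. OPA1 is cut by the inner-membrane proteases OMA1 and YME1L1, of which OMA1 acts mainly under stress. Division is carried out by the cytosolic GTPase DRP1, the product of Dnm1l, which is drawn to the outer membrane by receptors such as MFF and FIS1. MIC60 (Immt) and MIC19 (Chchd3) are core subunits of MICOS, the complex at the cristae necks. In T cells fused mitochondria with tight cristae are known from memory cells and divided mitochondria from effector cells.

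All 10 genes had a promoter window in the RefSeq-based table of GRCm38.p6, 15 windows in all because some genes have several starts. The windows of Opa1, Fis1 and Oma1 are shown because these were the 3 genes whose KO values all lay below their WT values. Each is the stretch of 250 bases before the listed start, 5′ to 3′ on the strand of the gene. Capitals mark matches on either strand to 3 motifs: CACNAG, the N-box, and CACGNG, the class C site, both letters to which HES proteins bind, and GCGC and TGCGC joined by any base, the palindrome-like motif of NRF1, a factor that drives many nuclear genes for mitochondrial proteins. The motifs CACNAG and CACGNG share the form CACGAG.
Opa1, chr16:29579084-29579333, plus strand: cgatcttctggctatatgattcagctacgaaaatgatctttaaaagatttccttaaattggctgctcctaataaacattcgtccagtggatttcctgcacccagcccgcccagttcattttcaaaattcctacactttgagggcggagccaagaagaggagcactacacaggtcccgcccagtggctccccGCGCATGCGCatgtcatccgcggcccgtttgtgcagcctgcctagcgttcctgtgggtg
Fis1, chr5:136953025-136953274, plus strand: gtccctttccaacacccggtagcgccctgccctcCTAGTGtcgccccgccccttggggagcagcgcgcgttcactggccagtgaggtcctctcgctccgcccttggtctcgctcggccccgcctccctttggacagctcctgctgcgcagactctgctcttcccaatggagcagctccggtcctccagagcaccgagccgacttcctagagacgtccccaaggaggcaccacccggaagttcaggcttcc
Oma1, chr4:103313596-103313845, plus strand: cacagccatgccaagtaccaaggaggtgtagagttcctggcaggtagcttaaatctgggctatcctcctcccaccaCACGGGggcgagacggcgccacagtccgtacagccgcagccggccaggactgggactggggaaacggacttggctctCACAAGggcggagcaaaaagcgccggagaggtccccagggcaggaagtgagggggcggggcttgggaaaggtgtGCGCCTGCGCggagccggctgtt

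The Opa1 window held no CACNAG and no CACGNG (0 of each) and 1 full NRF1 palindrome, GCGCATGCGC, from base 59 to base 50 before the start. The Oma1 window held a variant of it, GCGCCTGCGC, from base 23 to base 14 before the start, with 1 N-box and 1 class C site farther up. The Fis1 window shown held 1 N-box, and the window at its other start held the N-box on both strands at 1 place. Over the 10 genes, 2 had the NRF1 palindrome in a window, 4 had CACNAG and 2 had CACGNG. Among all 32851 windows of the table, 3.74% held the palindrome, 36.7% CACNAG and 23.5% CACGNG. These shares count windows, while the counts for the 10 genes take a match in any window of a gene, so the figures are not directly comparable. These matches are letters in a window and were not measured as bound sites.

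Hes1 checked the labels. Its single probe gave normalised log2 intensities of 10.97, 11.15 and 10.82 in WT and 4.51, 4.44 and 4.66 in KO, where it was detected on 0 of 3 arrays. Set against the lowest detected signal on each KO array, Hes1 stood at least 53.5-fold lower there. The measured difference was -6.44 on the log2 scale (limma adjusted p = 1.0e-06), on a probe that passed the filter through WT alone. The sources used here do not say whether the probe lies in the deleted stretch. Mean intensity per array ran from 703 to 713 in WT and from 520 to 687 in KO, with KO replicate 1 the dimmest and the least like the other arrays (mean correlation across features 0.981, against 0.990 to 0.991). All 6 T-lineage markers with a probe were detected on all arrays. Of 13 other markers with a probe (B-cell, myeloid, erythroid and stromal), Pecam1 was detected on all arrays, Klf1 on 4 and Ms4a1, Csf1r and Col1a2 on 1 each, and the other markers on 0. Pecam1, an endothelial adhesion gene that some blood cells also express, read 9.22, 9.59 and 9.40 in WT and 10.20, 9.70 and 9.89 in KO. All its KO values lay above its WT values, by 0.53 ± 0.16 (SE; adjusted p = 0.378 in limma). The summed raw intensity of the 4 stromal markers, Pecam1 included, was 1206 to 1367 in WT and 1333 to 1583 in KO. That of the T-lineage markers was 95040 to 101853 in WT and 67004 to 97697 in KO. These sums were not normalised, so they carry the brightness of each array. After normalisation the T-lineage markers differed by -0.07 (Cd3e), -0.07 (Cd3d), -0.01 (Cd3g), -0.25 (Ptcra), 0.14 (Thy1) and 0.23 (Notch1). In bulk samples fewer cells of a type and less RNA per cell cannot be told apart. The part of any of these in the values below was not tested.

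Opa1 was dim. Its brightest probe, ILMN_1247460, gave raw intensities of 195.7, 201 and 209 in WT and 143, 184.3 and 179.1 in KO, where the median probe of an array read 133.8 to 153.5. After background correction and normalisation the log2 values were 6.08, 6.10 and 6.25 in WT and 5.15, 5.94 and 5.55 in KO. All 3 KO values lay below all 3 WT values, KO replicate 1 lay lowest, and KO replicate 2 came closest to WT. Detection was set at 0.05 of the scanner's detection measure, and KO replicate 1 missed it at 0.0630, so only 2 of 3 KO arrays measured the gene. The mean was 6.15 ± 0.09 in WT and 5.55 ± 0.39 in KO (SD, n = 3 each), a difference of -0.60 ± 0.19 (SE) on the log2 scale, or 1.52-fold lower in KO. Of 11241 features tested, 91, or 0.810%, had a difference as low or lower. Opa1 was chosen for this same difference, so its rank is a description and not a test.

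The other Opa1 probes measured smaller differences of the same sign. ILMN_1243717 gave log2 values of 6.05, 5.65 and 6.10 in WT and 5.17, 5.86 and 5.72 in KO, a difference of -0.35. Here the groups overlapped, since WT replicate 2 lay below KO replicates 2 and 3. ILMN_1218742 gave 5.08, 5.55 and 5.50 in WT and 5.14, 4.98 and 5.26 in KO, a difference of -0.25, and was detected on 3 arrays only. WT replicate 1 lay below 2 of the KO arrays on this probe. KO replicate 1 missed detection on each of the 3 Opa1 probes, as the plot of the Opa1 probes shows.

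**Figure D1:**
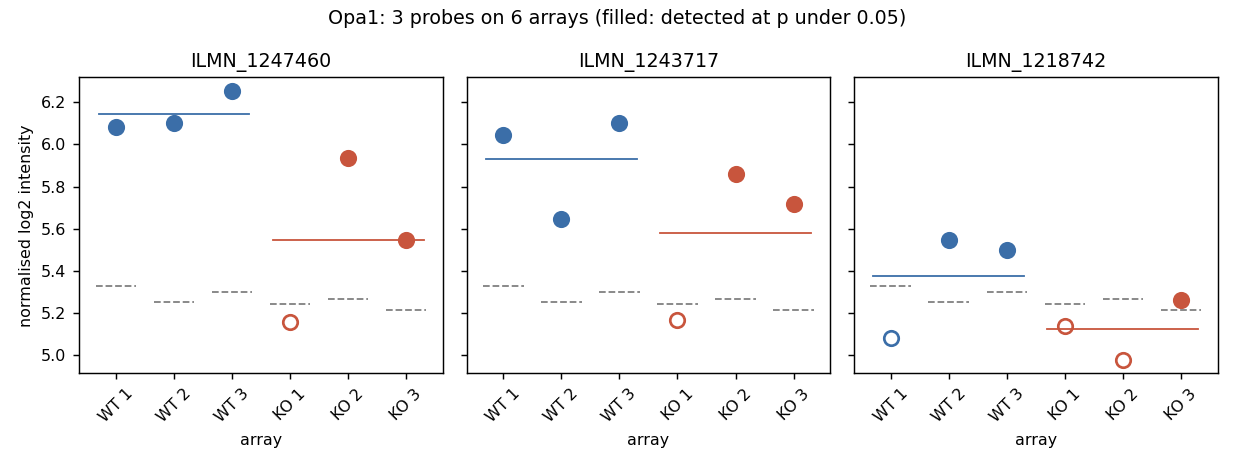
Normalised log2 intensity of the 3 Opa1 probes on each array, WT in blue and KO in red. Filled points were detected (p under 0.05), solid lines are group means, and dashed marks are the lowest detected signal of each array. On ILMN_1247460 the WT arrays sit between 6.08 and 6.25 and the KO arrays between 5.15 and 5.94, with KO 1 undetected on all 3 probes.

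How the background was handled moved the Opa1 difference more than leaving out any array did. It measured -0.19 without background correction and the same, -0.19, in the authors' deposited log2 values, against -0.60 here. Leaving out KO replicate 1 gave -0.40 and leaving out KO replicate 2 gave -0.80. The mean of the Opa1 probes in place of the brightest gave -0.40 as well. With detection required at p under 0.01 on all 6 arrays, Opa1 had no probe left. The sign was the same in all 14 alternatives that gave a value. Because all KO values of the brightest probe lay below all WT values, many of these could not turn it. Leaving out an array, array weights and a replicate block were such alternatives.

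The outer-membrane fusion genes were bright and close in both groups. Mfn1 read 9.92, 9.79 and 9.82 in WT and 9.66, 9.98 and 9.87 in KO on its brighter probe, so its lowest and its highest array were both KO. The difference was -0.01 ± 0.12 (SE, log2), and a second detected probe gave 0.07. Mfn2 read 10.37, 10.09 and 10.56 in WT and 10.33, 10.40 and 10.43 in KO. Its KO values all lay between the WT values of replicates 2 and 3, with a difference of 0.05 ± 0.14. The sign of both small differences turned with the processing, and when arrays were scaled to a common median instead Mfn1 measured -0.21 and Mfn2 -0.15, while the median of all features moved to -0.17.

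Among the fission genes, Dnm1l, which encodes the dividing GTPase DRP1, read 10.68, 10.71 and 10.63 in WT and 10.66, 10.76 and 10.60 in KO. The KO values spanned those of WT, and the difference was -0.0018 ± 0.10. Its other detected probes gave 0.09 and -0.04. Fis1, an outer-membrane adaptor of fission, read 12.02, 12.15 and 12.16 in WT and 11.86, 11.96 and 12.01 in KO. The groups did not overlap, though WT replicate 1 and KO replicate 3 nearly met. Its difference was -0.16 ± 0.11, or 1.12-fold lower in KO, and its other probe gave -0.21. Fis1 kept its sign in all 15 alternatives, from -0.38 with median scaling to -0.12 without KO replicate 1. Median scaling also moved the median of all features, to -0.17. With no overlap, leaving out an array, array weights or a replicate block could not turn the sign.

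Mff, the main outer-membrane receptor for DRP1, read 9.05, 9.63 and 9.29 in WT and 8.997, 9.23 and 9.58 in KO. The arrays of a group differed more than the groups, whose difference was -0.05 ± 0.20, and a second detected probe gave -0.17. The brightest probe gave 0.10 without WT replicate 2 and 0.08 without KO replicate 1.

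Of the genes whose products cut OPA1, Oma1, the stress-activated metalloprotease, read 10.81, 10.71 and 10.67 in WT and 10.46, 10.59 and 10.61 in KO. All KO values lay below all WT values, with a difference of -0.18 ± 0.11, or 1.13-fold lower in KO. The sign held in all 15 alternatives, from -0.37 with median scaling to -0.11 with array weights. Here too the median of all features moved to -0.17 with median scaling. Without overlap, fits that left out, weighted or blocked arrays could not turn the sign. Yme1l1, the protease of constitutive OPA1 processing, varied most among the 10 genes. It read 8.66, 7.62 and 8.18 in WT and 6.97, 8.69 and 8.03 in KO, so the lowest and the highest array were both KO. Its difference of -0.26 ± 0.44 turned to 0.20 without KO replicate 1, and it measured -0.66 when KO replicate 2 was left out, -0.53 when WT replicate 2 was and -0.0042 when WT replicate 1 was. A second detected probe read 7.24, 7.25 and 7.09 in WT and 6.40, 7.31 and 7.28 in KO. On it, 5 arrays lay close together and KO replicate 1 lay below them.

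Immt, the core MICOS subunit, read 12.14, 12.27 and 12.20 in WT and 12.33, 11.99 and 12.15 in KO. Here KO replicate 1 was the highest array and KO replicate 2 the lowest, and the difference was -0.04 ± 0.12. Its 3 other probes missed the detection filter. Chchd3, its MICOS partner, had 1 probe, which was detected on 0 of 6 arrays, so no level is given for it.

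**Figure D2:**
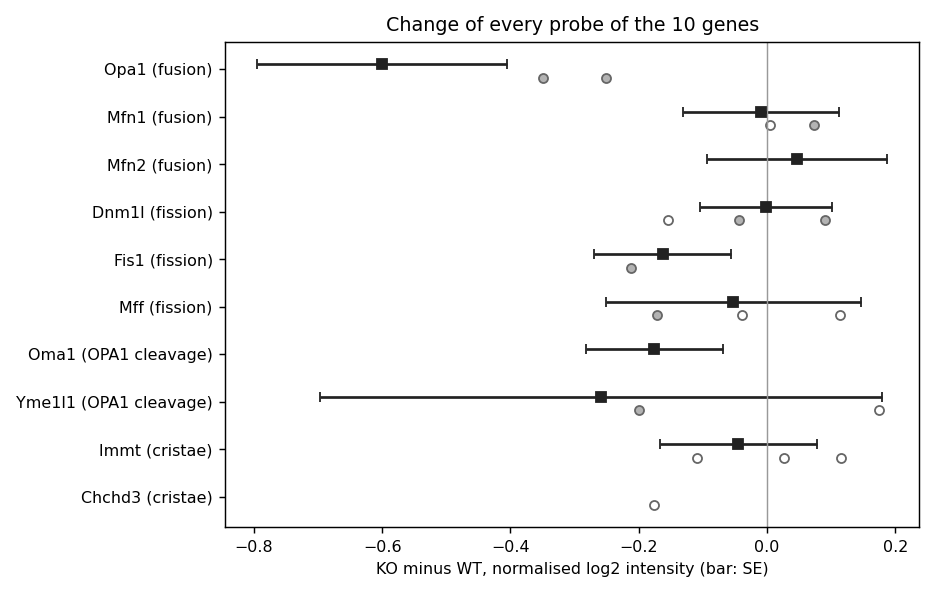
KO minus WT on the normalised log2 scale for all 26 probes of the 10 genes. Squares with SE bars are the brightest probe past the detection filter, grey circles other probes past it and open circles probes that missed it. Opa1 sits at -0.60, and the other 8 genes with a square sit between -0.26 and 0.05.

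Set side by side, the 8 genes other than Opa1 had differences from -0.26 to 0.05 with a median of -0.05, where the median of all features was 0.00. Of the 8, 7 had lower values in KO, against 49.5% of all features, and 3 of the 9 genes with Opa1 included had all KO arrays below all WT arrays, against 7.69% of all features. The reverse, all KO arrays above, held for 0 of the 9 and for 8.49% of all features. Over the whole array 7 features, or 0.0623%, passed a limma adjusted p of 0.05, 4 of them higher (0.0356%) and 3 lower (0.0267%), and 0 of the 9 genes were among them. Since this contrast chose the genes, nothing is read from these counts. The median of the 8 turned to 0.04 without KO replicate 1.

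The arrays of a group differed from each other in a shared order for some of the genes. Of the 9 genes, 6 had their lowest value on KO replicate 1, as did 31.2% of all features. Mfn1 and Immt ranked the 6 arrays in exactly opposite order, Mfn1 with KO replicate 2 highest and KO replicate 1 lowest. Yme1l1 was likewise highest on KO replicate 2 and lowest on KO replicate 1, with a deviation of -1.06 from its 6-array mean there, where Immt stood at 0.15 from its own. These orders were picked out of 36 pairs of genes after the values were seen.

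**Figure D3:**
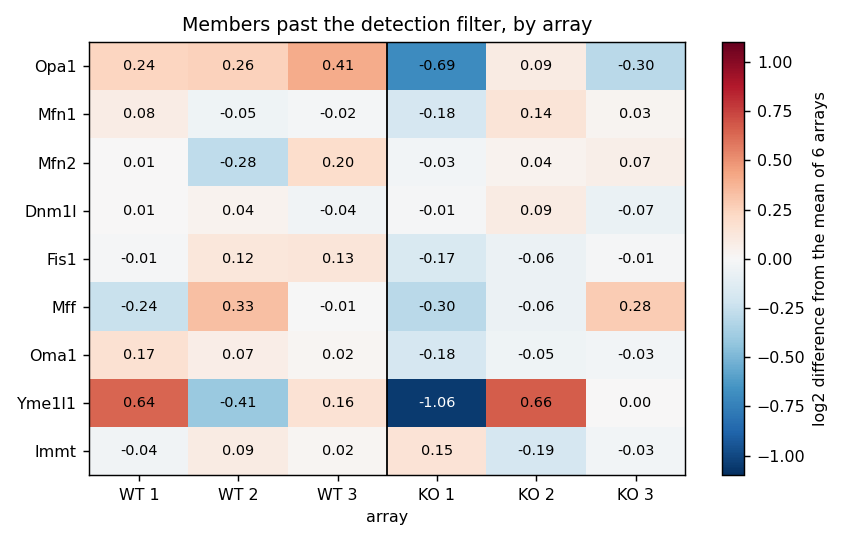
Difference of each gene from its own mean over 6 arrays (log2), for the 9 genes past the detection filter, with WT arrays left and KO arrays right of the line. KO 1 is the lowest array for Opa1 (-0.69) and Yme1l1 (-1.06) and the highest for Immt (0.15).

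The genes most like Opa1 over the 6 arrays were taken as the 5 named genes with the highest Pearson correlation with its brightest probe. These were Arl11, Zfp738, Tigd2, Hnrnph3 and Tspan6, with r from 0.985 to 0.987, and from 0.961 to 0.987 without KO replicate 1. Zfp738 read 6.82, 6.94 and 7.01 in WT and 6.20, 6.68 and 6.50 in KO, and Hnrnph3 read 8.22, 8.25 and 8.28 in WT and 7.59, 8.19 and 7.92 in KO. As in Opa1, KO replicate 1 was lowest, then KO replicate 3, then KO replicate 2. Of 8835 other named genes, 289, or 3.27%, had an r of at least 0.9. The 6 points are the same arrays for every gene and fall in 2 groups, so this likeness is a description.

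Opa1 is the nearest protein-coding gene to Hes1 on its side of chromosome 16 in the gene order of GRCm38.p6, and the genes around the deleted locus, which the choice of genes had not used, were tested. None passed the test. Of the 39 other genes among the nearest 20 on each side, 36 had a named probe and 12 were detected well enough to test, 3 on the side of Opa1 and 9 on the other. In limma 0 of the 12 passed an adjusted p of 0.05, the lowest being 0.163, and 2 had an unadjusted p under 0.05, against 9.27% of all features (5.00% higher and 4.27% lower). The 12 had 7 higher and 5 lower values in KO and a median difference of 0.08.

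Within 5 positions of Hes1, Atp13a3, a cation-transporting ATPase gene, was the other gene tested. It read 8.82, 8.39 and 8.75 in WT and 8.50, 8.93 and 9.01 in KO, an overlapping 0.16 ± 0.18 (SE, log2; adjusted p = 0.785 in limma). Lsg1, at position 6, measured 0.12 ± 0.11. On the side of Opa1 the next gene tested was Ccdc50, at position 7, with -0.15 ± 0.11 (adjusted p = 0.679). The genes between them, among them Atp13a4 right beside Opa1, missed the detection filter, as did Cpn2, Lrrc15, Gp5 and Tmem44 within 5 positions on the other side.

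The 2 genes with an unadjusted p under 0.05 lay at position 19 on either side. Senp5, a SUMO protease known to act on DRP1, read 6.51, 6.39 and 6.41 in WT and 7.003, 6.92 and 7.09 in KO. All KO values lay above all WT values, by 0.57 ± 0.11 (adjusted p = 0.163), and a dimmer probe detected on all arrays gave 0.08. The third Senp5 probe was detected on 0 WT and 3 KO arrays, so its 0.16 passed the filter through KO alone. With array weights Senp5 passed the test, where 119 features did. Bcl6, a repressor gene of lymphocytes, read 8.48, 8.13 and 8.15 in WT and 7.68, 7.80 and 7.70 in KO, a difference of -0.53 ± 0.13 (adjusted p = 0.289 in limma) with no overlap.

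**Figure D4:**
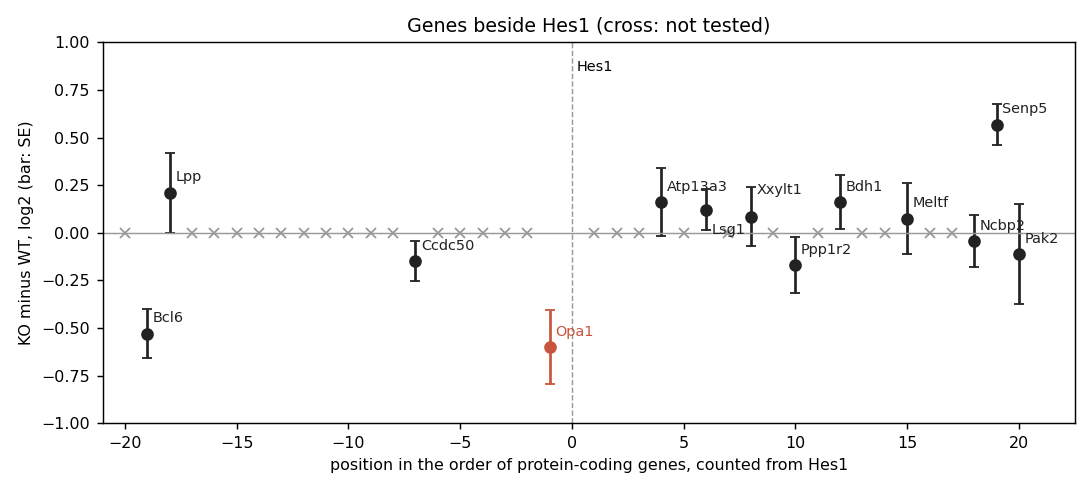
KO minus WT (normalised log2, bar SE) for the genes beside Hes1, placed by their order on the chromosome, with crosses for genes not tested. Opa1, in red and described without a test, sits at -0.60 next to Hes1. Senp5 at 0.57 and Bcl6 at -0.53 lie at position 19 on either side, and the other 10 genes sit between -0.17 and 0.21. Hes1 itself (-6.44) is off the scale.

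Other genes of mitochondrial upkeep were read from 7 lists of 82 genes, chosen by function. Of these, 77 had a named probe and 62 were tested, and 0 rose and 0 fell at an adjusted p of 0.05 in limma, as in all 15 alternatives. At an unadjusted p under 0.05 there were 6, 1 higher and 5 lower in KO, or 9.68% against 9.27% of all features. The median difference over the 62 was -0.02, with 33 lower and 29 higher values, of which 1 higher value, that of Kif5b, came from a probe detected in KO only. Without KO replicate 1 there were 9 genes with an unadjusted p under 0.05, 2 higher and 7 lower, among them the same 6. They made up 14.5% of the 62, against 9.39% of all features in that comparison. On all arrays, 6 of the 62 genes had all KO values below all WT values and 4, Kif5b among them, all above. Of all features, 7.69% lay wholly below and 8.49% wholly above.

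The fusion and fission partners held no gene near the threshold (0 of 10 with an unadjusted p under 0.05), with a median of 0.04. The actin regulator gene Inf2, which helps constrict mitochondria, measured 0.42 ± 0.28 (SE, log2), a value set by KO replicate 1 at 6.59 against 5.25 to 5.66 on the other arrays. Mief2, a receptor for DRP1, measured 0.15 ± 0.12. Spire1 measured -0.19 ± 0.15, and a dimmer probe, detected on 2 WT arrays and 1 KO array, gave -0.30. Another Spire1 probe, at 0.72, was detected on 0 WT and 3 KO arrays and so passed the filter through KO alone.

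The list of inner-membrane protease and prohibitin genes also held mitochondrial proteases found elsewhere. Of its 11 genes tested, 7 had lower values in KO, against 49.5% of all features, and the median was -0.04. Stoml2, whose product binds prohibitins and cardiolipin-rich membrane beside OPA1 and YME1L1, read 7.76, 7.75 and 7.81 in WT and 7.40, 7.54 and 7.54 in KO. The groups did not overlap, with a difference of -0.28 ± 0.10 (adjusted p = 0.471 in limma). Prohibitin gene Phb2 measured -0.11 ± 0.12 and the protease gene Htra2 0.16 ± 0.14. The other Htra2 probes, detected on all 6 arrays, gave -0.14 and 0.03, so its probes differed in sign.

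Of 9 other MICOS and cristae genes, 6 had lower values in KO, against 49.5% of all features, and the median was -0.05. Chchd10, a small protein of the space between the membranes, read 9.73, 10.20 and 10.05 in WT and 9.41, 9.60 and 9.48 in KO, a difference of -0.50 ± 0.14 (adjusted p = 0.365 in limma). All its KO arrays lay below all WT arrays. The MICOS subunit gene Micos13 measured -0.14 ± 0.15 and Mtx3, a metaxin, 0.18 ± 0.22.

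Of 7 mitophagy genes, which serve the removal of mitochondria, 2 (28.6%) had an unadjusted p under 0.05 in limma, against 9.27% of all features. The 2 pointed opposite ways. Bnip3l, a mitophagy receptor induced by low oxygen, read 12.09, 12.09 and 11.92 in WT and 11.48, 11.74 and 11.59 in KO, a difference of -0.43 ± 0.12 (adjusted p = 0.333 in limma). Usp30, a deubiquitinase that opposes mitophagy, read 6.83, 6.76 and 6.70 in WT and 7.58, 7.08 and 6.96 in KO, a difference of 0.44 ± 0.17 (adjusted p = 0.483). In neither gene did the groups overlap. The kinase gene Tbk1 measured 0.21 ± 0.11.

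Of 12 biogenesis and mitochondrial DNA genes, 2 (16.7%) had an unadjusted p under 0.05 in limma, against 9.27% of all features. Both were lower in KO, as were 4.27% of all features at that p, and the median was 0.01. Tfb1m, which methylates mitochondrial ribosomal RNA, read 8.13, 8.59 and 8.42 in WT and 7.83, 7.75 and 8.06 in KO, a difference of -0.50 ± 0.15 (adjusted p = 0.374 in limma). Tfam, which packs mitochondrial DNA, read 11.03, 11.14 and 11.17 in WT and 10.86, 10.84 and 10.86 in KO, a difference of -0.26 ± 0.10 (adjusted p = 0.492), and its other probe gave -0.14. The polymerase gene Polg measured 0.26 ± 0.17.

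The last 2 lists held no gene with an unadjusted p under 0.05. Cardiolipin is the inner-membrane lipid with which OPA1 fuses membranes. Of 8 genes listed for its synthesis, precursor supply and remodelling included, 6 had lower values in KO, with a median of -0.14. Of all features, 49.5% had lower values. Tamm41 measured -0.23 ± 0.13 with 2 other probes at -0.19 and -0.20, Triap1 -0.16 ± 0.11 and Cds2 -0.22 ± 0.15. Of 5 transport adaptor genes tested, the 4 detected in both groups had higher values, from 0.0089 to 0.16. Trak1, which links mitochondria to motors, measured 0.16 ± 0.18 and Rhot1 0.10 ± 0.12, though other detected Rhot1 probes gave -0.25 and 0.08. The motor gene Kif5b measured 0.23 ± 0.15 on a probe detected on 0 WT and 3 KO arrays, which passed the filter through KO alone, and its other 2 probes, detected on 0 arrays, gave -0.18 and -0.02.

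**Figure D5:**
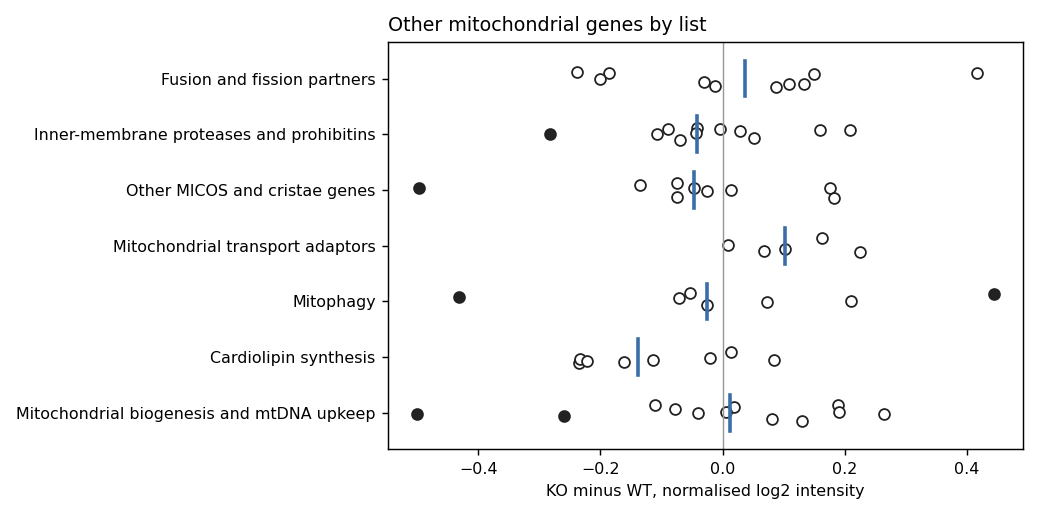
KO minus WT (normalised log2) for the 62 genes tested of the 7 mitochondrial lists, 1 circle a gene. Filled circles had an unadjusted p under 0.05 in limma (6 genes), and the circles run from -0.50 to 0.44. Blue bars are list medians, which run from -0.14 to 0.10. The 0.10 is that of the transport adaptors and includes Kif5b, whose probe was detected in KO only.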

How the data were processed

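Total RNA of 3 WT and 3 KO mouse T-ALL samples was measured, grouped by sample title. Per the labels' protocols, 10 ng of RNA was amplified and biotin-labelled, which can distort relative signals. The deposited table held for each probe and array an intensity, on a linear scale, beside its detection p-value, per the file headers, with no background subtraction (lowest value 101.9). A second table held the authors' log2 values, which equalled quantile-normalised log2 intensities within 5.0e-05. The sources used here do not name the scanner software, and the number of arrays limits the precision. No column of other samples was present (0).

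Intensities were background-corrected from the detection p-values and quantile-normalised with neqc (offset 16) in limma 3.58.1, R 4.3.3. Quantile normalisation hides a shift of most genes in 1 direction. Platform annotation gave 34885 probes 1 symbol, 18 several and 10378 none here. Of these, 34807 matched RefSeq of GRCm38.p6 and 0 symbols changed. The arrays' genome build is not given, so probes have no coordinates here. The RefSeq table served for gene order, and the promoter windows are given in its build. Probes detected (p under 0.05) on at least 3 arrays were kept, with the brightest probe per gene, giving 8836 named genes and 11241 features. The groups were compared with lmFit and eBayes of limma, with p-values adjusted over all features (Benjamini-Hochberg), and differences are KO minus WT. The steps were also run on simulated data, with no array made to stand apart as KO replicate 1 did. No result here is drawn from that run.

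The genes and lists were chosen with earlier results of these data known. Named genes were Hes1, the 10 genes, up to 3 genes per list by p, the tested neighbours within 5 positions or with an unadjusted p under 0.05, the 5 genes most like Opa1, and detected markers. Lsg1 and Ccdc50 were named after their values were seen. Deviations of same-numbered WT and KO arrays correlated at -0.10, -0.27 and 0.15. So few values cannot settle whether the numbers pair the samples, and the main fit used no pairing. Alternatives were other background corrections, median scaling, the authors' log2 values, other filters, the mean of probes, array weights, a replicate block and leaving out each array.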

Additional observations from a re-analysis of the deposited data

How the results depend on the processing

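The number of features past the test was 7 (4 higher, 3 lower) and was 36 without background correction, 36 in the authors' deposited log2 values, 30 with normexp on the signals alone, 23 with median scaling (6 higher, 17 lower), 17 with the stricter detection filter, 119 with array weights and 2 with a replicate block. Leaving out 1 array gave 2 to 9. The Opa1 difference of -0.60 was -0.19 without background correction, -0.19 in the authors' values and -0.30 with normexp, and -0.80 to -0.40 over the fits without 1 array. With the mean of its probes it was -0.40. Under median scaling it was -0.66, or -0.49 relative to the median of all features. The median of the other genes, -0.05, was -0.25 with median scaling, where the median of all features was -0.17. Without 1 array the median of the other genes ran from -0.12 to 0.04, the 0.04 (0.0399) being without KO replicate 1. Pathway genes passing the test were 0 throughout. Hes1 neighbours passing were 0, except 1 with array weights. In these balanced groups a replicate block leaves each difference as it was by construction, and bears on the tests only. The count of pathway genes with an unadjusted p under 0.05 without KO replicate 1 was added after the data were seen. The lowest detected log2 signal of an array was 5.21 to 5.33, so signal over background limits Opa1, and KO replicate 1 missed detection on all 3 of its probes.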
